A study of Mus musculus with 4 samples.

Results

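The genes described here are 10 genes of osteoblasts and of mineralization: *Runx2*, *Sp7*, *Alpl*, *Phex*, *Spp1*, *Ibsp*, *Dmp1*, *Mepe*, *Bglap*, and *Bglap2*. They were taken by symbol from the 55401 genes of the deposited tables, and each symbol matched 1 row, so all 10 were found. CD45 marks leukocytes, and the libraries were made from CD45+ cells sorted from the dura mater. The mice were wild-type C57BL/6J males that received 2 μl of an AAV serotype 9 vector into the cisterna magna at 4 wk of age. AAV-mVEGF-C delivered mouse VEGF-C in its full length. AAV-CTRL, which is not an empty vector, encoded a soluble part of VEGFR-3 that does not bind VEGF-C, joined to an immunoglobulin tail. Each group had 2 libraries, and each library was a pool of 10 to 12 mice, so the spread given below is that between pools. The interval between injection and this sort is not given in the sources used here.

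Osteoblasts are the cells that lay down bone. RUNX2 and, downstream of it, osterix (the product of *Sp7*) are the transcription factors that commit precursors to this fate. Committed cells display tissue-nonspecific alkaline phosphatase (*Alpl*), which removes the mineralization inhibitor pyrophosphate. They then secrete collagen I, osteocalcin (*Bglap* and *Bglap2*), and acidic phosphoproteins of the SIBLING family, while *Dmp1*, *Phex*, and *Mepe* are turned on as cells become osteocytes. The dura lies against the inner face of the skull and in the study was peeled from the skullcap. Several of these genes are also used by leukocytes. Osteopontin (*Spp1*) is made by macrophages and osteoclasts, and *Runx2* is active in plasmacytoid dendritic cells and some lymphocytes.

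The libraries held 32520709 to 46409700 reads assigned to genes. *Ptprc*, which encodes CD45, was at 1150.5 and 945 CPM (counts scaled by library size with edgeR's TMM factors) in the controls, AAV-CTRL 1 and 2, and at 1084 and 1038 CPM after the VEGF-C vector, in AAV-mVEGF-C 1 and 2. *Vegfc* itself was at 4.65 and 3.08 CPM in the controls and 1.66 and 1.86 CPM after the VEGF-C vector. The reads of this gene were thus lower, not higher, in the mice that received it (unadjusted p = 0.0433 and adjusted p = 0.999 in edgeR). Of all genes tested, 15.2% likewise had both AAV-mVEGF-C libraries below both controls. The paper reports that VEGF-C protein rose in the cerebrospinal fluid after the vector, measured by ELISA. AAV-CTRL 1 stood apart. Only 20990 genes had at least 1 read in it, against 29221 to 37511 in the other libraries. Among genes with 10 to 100 reads summed over the other 3 libraries and at least 1 read in each of them, 53.2% were at 0 reads in AAV-CTRL 1. In the other libraries that share was between 0.96% and 7.32%. A low gene at 0 reads in AAV-CTRL 1 therefore carries little information on its level.

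**Figure D1:**
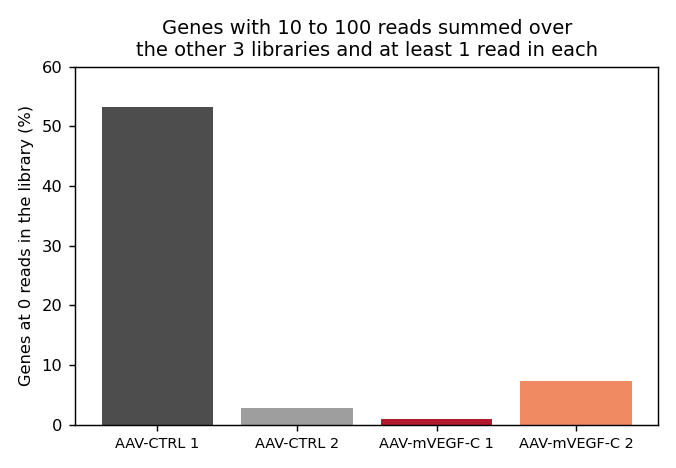
Share of genes with no read in each library (y axis, %), among genes with 10 to 100 reads summed over the other 3 libraries and at least 1 read in each of those. The bar of AAV-CTRL 1 reaches 53.2%, and the other bars lie between 0.96% and 7.32%.

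The osteocalcin genes are shown first because their sequences limit what can be said of each. *Bglap*, *Bglap2*, and their paralog *Bglap3* lie side by side within 16 kb on GRCm38 chromosome 3, from 88368616 to 88384464 on the minus strand. The coding sequences of *Bglap* and *Bglap2* (GENCODE M21, without the stop codon) are both 285 bases long and differ at 4 bases, which are in capitals below. The longest stretch without a difference is 241 bases, longer than a single read of the study.
Bglap: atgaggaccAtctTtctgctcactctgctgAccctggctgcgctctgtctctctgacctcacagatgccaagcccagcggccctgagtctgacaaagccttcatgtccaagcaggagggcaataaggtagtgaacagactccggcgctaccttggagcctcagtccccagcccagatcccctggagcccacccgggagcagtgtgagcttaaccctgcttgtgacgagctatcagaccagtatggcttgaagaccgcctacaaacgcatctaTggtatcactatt
Bglap2: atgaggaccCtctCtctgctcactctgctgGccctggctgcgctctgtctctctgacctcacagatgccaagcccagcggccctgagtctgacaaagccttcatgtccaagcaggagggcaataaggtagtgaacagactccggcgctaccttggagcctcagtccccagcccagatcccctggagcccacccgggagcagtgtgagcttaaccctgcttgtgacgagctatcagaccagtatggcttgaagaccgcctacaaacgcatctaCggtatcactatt

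*Bglap* spans 88383501 to 88384464 and *Bglap2* 88377736 to 88378699. *Bglap3* is identical to *Bglap* at 95.4% of its coding bases and to *Bglap2* at 96.8%. The deposited reads of all 3 genes were decimals in some libraries, so reads were divided among them by estimation. Their sum is therefore a firmer value than any of its parts.

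The promoters show a feature that the choice of genes did not use. Of the 10 genes, 8 had a RefSeq entry (GRCm38.p6) with 1 or more windows of 300 bases, from 250 before to 50 after a start. *Sp7* and *Bglap2* had none. The letters ACCACA, or TGTGGT on the other strand, which RUNX proteins bind, occurred in a window of 5 of the 8 genes (*Runx2*, *Bglap*, *Spp1*, *Dmp1*, and *Mepe*) and in 5 of their 11 windows. They occurred in 16.8% of all 32851 windows. The homeodomain core TAATTA, a palindrome, occurred in 2 of the 11 windows and in 5.29% of all windows. The 180 bases before the first start are shown for the 3 most abundant genes and for *Bglap*, with ACCACA or TGTGGT in capitals.
Bglap, chr3:88384467-88384646, minus strand: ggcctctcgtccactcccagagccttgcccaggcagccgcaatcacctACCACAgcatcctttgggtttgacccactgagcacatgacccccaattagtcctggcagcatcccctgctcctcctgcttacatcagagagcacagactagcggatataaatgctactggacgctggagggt
Spp1, chr5:104434931-104435110, plus strand: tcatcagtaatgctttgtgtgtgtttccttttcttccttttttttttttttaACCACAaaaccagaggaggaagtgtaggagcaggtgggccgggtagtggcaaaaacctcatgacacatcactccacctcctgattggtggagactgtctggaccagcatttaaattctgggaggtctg
Runx2, chr17:44814628-44814807, minus strand: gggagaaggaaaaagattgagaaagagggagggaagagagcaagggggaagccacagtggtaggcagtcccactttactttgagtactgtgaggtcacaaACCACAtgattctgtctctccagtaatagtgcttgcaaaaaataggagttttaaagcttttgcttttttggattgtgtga
Alpl, chr4:137796385-137796564, minus strand: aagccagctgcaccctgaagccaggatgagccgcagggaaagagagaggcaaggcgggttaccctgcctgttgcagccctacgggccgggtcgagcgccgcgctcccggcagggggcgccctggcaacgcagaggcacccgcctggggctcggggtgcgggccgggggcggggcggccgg

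The letters begin 132 bases before the start in *Bglap*, 128 in *Spp1*, and 80 in *Runx2*, which has 2 further matches after its start. They were absent from both *Alpl* windows. A match is only a description of these letters, and so is its absence.

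Per unit of length, the 10 genes formed 3 tiers by their means. On the TPM scale, which corrects for gene length, the mean level over the 4 libraries was 16.6 for *Runx2*, 11.1 for *Spp1*, and 9.90 for *Alpl*. It was 3.07 for *Bglap* and 1.87 for *Bglap2*. It was 0.247 for *Ibsp*, 0.171 for *Sp7*, 0.048 for *Mepe*, 0.0475 for *Phex*, and 0.0448 for *Dmp1*. *Runx2* was the highest of the 10 in each library, but the ranges of *Runx2*, *Spp1*, and *Alpl* over the libraries overlapped, as did those of *Bglap* and *Bglap2*, those of *Ibsp* and *Sp7*, and those of *Mepe*, *Phex*, and *Dmp1*. Neighboring tiers overlapped too, since *Alpl* went down to 5.62 TPM and *Bglap* up to 6.58 TPM, and *Bglap2* went down to 0.283 TPM and *Ibsp* up to 0.53 TPM. *Runx2*, *Alpl*, and *Spp1* together made up 81.5% to 94.1% of the summed TPM of the 10 genes. *Ptprc* was at 191 to 215 TPM.

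*Runx2*, the regulator that starts the osteoblast program, had similar means in both groups. It lies on GRCm38 chromosome 17 (ENSMUSG00000039153.17, 44495987 to 44814797, minus strand). The controls were at 48.6 and 91.8 CPM, and AAV-mVEGF-C 1 and 2 at 71.0 and 77.3 CPM. Both AAV-mVEGF-C values lay between the controls, whose distance was wider than any difference between the groups. The means were 70.2 ± 30.5 CPM (SD, n = 2 pools) and 74.1 ± 4.44 CPM (SD, n = 2), giving 0.08 ± 0.30 for the log2 fold change with its standard error (SE). The adjusted p was 0.999 (quasi-likelihood test of edgeR, Benjamini-Hochberg adjustment over all genes tested). Its direction turned on the control used. Without AAV-CTRL 1 it was −0.32 (adjusted p = 0.802 from edgeR), and without AAV-CTRL 2 it was 0.62 (adjusted p = 0.0427). The opposite strand of its locus holds *Supt3*, with 440 to 598 reads per library. Whether the authors' counting used the strand is not given in the sources used here.

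*Sp7*, the factor that acts after RUNX2 and is largely restricted to the osteoblast lineage, was almost unread in 1 control. It lies on chromosome 15 (ENSMUSG00000060284.7, 102356606 to 102367182, minus strand). The controls held 2 and 48 of its reads (0.0447 and 1.39 CPM), and the AAV-mVEGF-C libraries 23 and 29 (0.587 and 0.914 CPM). The controls were again the lowest and the highest library. The log2 fold change was 0.07 ± 1.44 (SE; edgeR adjusted p = 0.999), a standard error too wide to show a change of several fold in either direction. It was −0.91 without AAV-CTRL 1, 3.98 without AAV-CTRL 2, −0.27 without AAV-mVEGF-C 2, and 1.69 with limma-voom.

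*Alpl*, the phosphatase, was lower after AAV-mVEGF-C in both libraries. It lies on chromosome 4 (ENSMUSG00000028766.10, 137741733 to 137796384, minus strand). The controls were at 31.8 and 53.9 CPM and the AAV-mVEGF-C libraries at 18.8 and 28.1 CPM, so the groups did not overlap. The means were 42.8 ± 15.6 and 23.5 ± 6.54 CPM (SD, n = 2 each), 1.83-fold apart, and the log2 fold change was −0.87 ± 0.32 (SE). The unadjusted p was 0.0342 and the adjusted p 0.999 in edgeR, and DESeq2 gave an adjusted p of 0.522. The difference therefore did not pass the test across all genes. It did pass in edgeR without AAV-CTRL 1 (log2 fold change −1.22, adjusted p = 0.000565) and without an expression filter (−0.89, adjusted p = 0.0137), a setting in which 0.659% of all genes passed. Without AAV-CTRL 2 it was −0.43 (edgeR adjusted p = 0.221). In bulk libraries such as these, fewer cells of a type and less RNA per cell cannot be told apart.

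*Phex*, on the X chromosome (ENSMUSG00000057457.11, 157162075 to 157415312, minus strand), encodes an endopeptidase whose loss causes phosphate wasting. The controls held 9 and 18 of its reads and the AAV-mVEGF-C libraries 12 and 1 (log2 fold change −1.06 ± 1.62, SE; edgeR adjusted p = 0.999). The groups overlapped. The value was −0.22 without AAV-mVEGF-C 2, which held the single read, and likewise without AAV-CTRL 2, but −1.61 without AAV-CTRL 1 and −3.37 without AAV-mVEGF-C 1. Up to 8 reads per library were also assigned to *Gm15172*, a pseudogene on the same strand within *Phex*.

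Osteocalcin, a calcium-binding protein of bone matrix, had fewer reads in both AAV-mVEGF-C libraries. *Bglap* (ENSMUSG00000074483.2) stood at 0.894 and 2.21 CPM in the controls, against 0.511 and 0.599 CPM in the AAV-mVEGF-C libraries. Its log2 fold change was −1.47 ± 0.80 (SE; edgeR adjusted p = 0.999), and it was −2.00 without AAV-CTRL 1 and −0.68 without AAV-CTRL 2. *Bglap2* (ENSMUSG00000074486.2) stood at 1.30 and 1.16 CPM in the controls, against 0.281 and 0.126 CPM, with group means 6.04-fold apart. Its log2 fold change was −2.56 ± 0.97 (SE), with an unadjusted p of 0.0381 and an adjusted p of 0.999 in edgeR. The value for *Bglap2* ran from −3.24 without AAV-mVEGF-C 1 to −2.11 without AAV-mVEGF-C 2. Neither gene's groups overlapped. The reads behind *Bglap2* were few, 58.1 and 39.9 in the controls and 10.8 and 3.89 in the other libraries. For the paralog *Bglap3* there were 0 and 17.2 control reads, against 10.1 and 3.

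Summed over the 3 osteocalcin genes, the controls held 98 and 133 reads, or 2.19 and 3.86 CPM. The AAV-mVEGF-C libraries held 41 and 26 reads, or 1.05 and 0.82 CPM, so these groups did not overlap either. Fitted as 1 gene, the sum had a log2 fold change of −1.69, with an unadjusted p of 0.0221 and an adjusted p of 0.999 in edgeR. Unlike *Ibsp*, *Dmp1*, and *Mepe*, osteocalcin was well read in AAV-CTRL 1. The share of the sum given to *Bglap2* was 59.2% in AAV-CTRL 1 (95% Wilson interval, 49.3 to 68.4), 30.1% in AAV-CTRL 2 (22.9 to 38.3), 26.8% in AAV-mVEGF-C 1 (15.7 to 41.9), and 15.4% in AAV-mVEGF-C 2 (6.15 to 33.5). These intervals cover counting error only and treat each estimated read as if it were assigned to 1 paralog. Since only reads over bases that differ, inside or outside the coding sequence, inform the division, its true error is wider. No difference in the division between libraries is read here.

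The SIBLING genes *Dmp1*, *Ibsp*, *Mepe*, and *Spp1* lie with *Dspp* within 270 kb of chromosome 5, from 104170712 to 104441050, all on the plus strand. *Ibsp* spans 104299171 to 104311469, *Mepe* 104325329 to 104338611, *Dmp1* 104202613 to 104214102, and *Spp1* 104435118 to 104441050. *Spp1* (ENSMUSG00000029304.14), the only abundant one, had 15.0 and 25.2 CPM in the controls, against 14.1 and 20.6 CPM after the VEGF-C vector. The groups overlapped, and the log2 fold change was −0.21 ± 0.32 (SE; edgeR adjusted p = 0.999). At most 32.3 reads per library were assigned to *Gm42793*, which overlaps *Spp1* on the same strand. The value for *Spp1* became 0.22 without AAV-CTRL 2 and 0.043 without AAV-mVEGF-C 1. *Ibsp* (ENSMUSG00000029306.8), which encodes the hydroxyapatite-nucleating bone sialoprotein, had 0 and 43 control reads, against 28 and 17 after the VEGF-C vector (log2 fold change 0.02 ± 1.80, SE; edgeR adjusted p = 0.999). The log2 fold change of *Ibsp* was −1.01 without AAV-CTRL 1, −0.20 without AAV-mVEGF-C 1, and 2.85 with limma-voom. It was 7.60 without AAV-CTRL 2 (edgeR adjusted p = 0.0452), against a control at 0 reads, and is then no measure of size. *Ibsp* repeated the pattern of *Sp7*, with the controls as the lowest and the highest library.

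The genes of late osteoblasts and osteocytes were close to the limit of detection. *Dmp1* (ENSMUSG00000029307.7), a regulator of phosphate and matrix mineral, had 0 and 8 control reads, against 16 and 1 (exact two-sided permutation test of CPM, p = 0.667). *Mepe* (ENSMUSG00000053863.3), whose peptide inhibits mineralization, had 0 and 3 control reads, against 10 and 3 (exact permutation test, p = 0.333, the smallest that 2 pools against 2 allow). Both were too low for edgeR's expression filter. *Dspp*, a dentin gene and no member of the list, had 11 and 3 reads after the VEGF-C vector and 0 in either control. Reads of this number give no reliable direction, and AAV-CTRL 1 had 0 reads for *Ibsp*, *Dmp1*, *Mepe*, *Dspp*, and *Bglap3* alike.

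**Figure D2:**
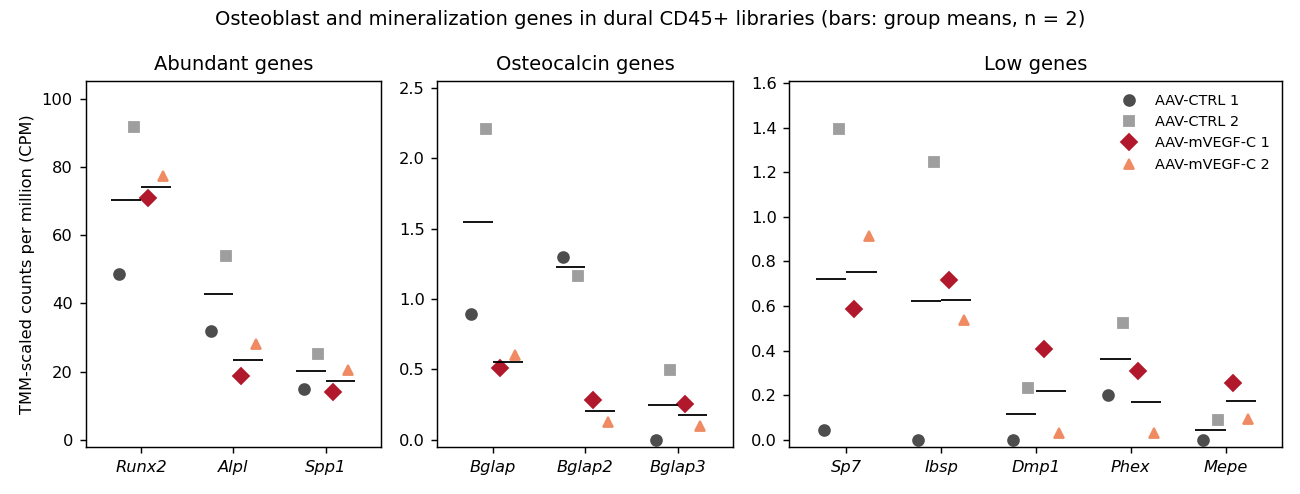
TMM-scaled CPM (y axis, linear, a scale of its own in each panel) of the 10 genes and the paralog *Bglap3* in each library. Symbols are libraries and bars are group means of 2 pools. *Alpl*, *Bglap*, and *Bglap2* have both AAV-mVEGF-C libraries below both controls, while for *Runx2*, *Sp7*, and *Ibsp* the 2 controls lie on either side of the AAV-mVEGF-C libraries.

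Of the 10 genes, 8 passed the expression filter and were tested, and 0 had an adjusted p under 0.05. Over all 19806 genes tested, the share with such a p was 0% in edgeR, with 523 genes, or 2.64%, at an unadjusted p under 0.05, and DESeq2 called 77, or 0.189% of its genes, none of them among the 10. An unadjusted p under 0.05 toward lower values was found for *Alpl* and *Bglap2*, 2 of the 8, against 1.18% of all genes. Both AAV-mVEGF-C libraries were below both controls for *Alpl*, *Bglap*, and *Bglap2*, 3 of the 8, against 15.2% of all genes. None of the 8 had both AAV-mVEGF-C libraries above the controls, which was so for 16.7% of all genes. A log2 fold change at or under −1 was found for *Bglap*, *Bglap2*, and *Phex*, against 3.23% of all genes. The median log2 fold change of the 8 genes was −0.54, with 5 lower and 3 higher, beside 0.0034 for all genes. With 8 genes, of which 2 are near-identical copies, these counts are a description.

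AAV-CTRL 2 held the highest CPM of the 4 libraries for 7 of the 10 genes, all of them among the 8 tested, and for 24.8% of all genes tested. *Bglap2* was highest in AAV-CTRL 1, and *Dmp1* and *Mepe*, which were not tested, in AAV-mVEGF-C 1. The CPM summed over the 10 genes was 97.8 and 178 in the controls, against 107 and 128 after the VEGF-C vector. Without AAV-CTRL 1, all 8 genes were lower after AAV-mVEGF-C, at a median of −1.11. Without AAV-CTRL 2, 4 were lower, and the median was −0.0008. At the adjusted threshold, *Alpl* was called without AAV-CTRL 1, where 1.85% of all genes were called. *Runx2* and *Ibsp* were called higher without AAV-CTRL 2, where 9.19% of all genes were called, and *Ibsp* had 0 reads in the control that was left. *Alpl*, *Bglap*, *Bglap2*, and *Phex* stayed below 0 with any 1 library left out. For *Alpl*, *Bglap*, and *Bglap2* this follows from groups that do not overlap and adds nothing to it. For *Runx2*, *Sp7*, and *Ibsp*, the controls lay on either side, so the direction had to turn with the control left out.

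**Figure D3:**
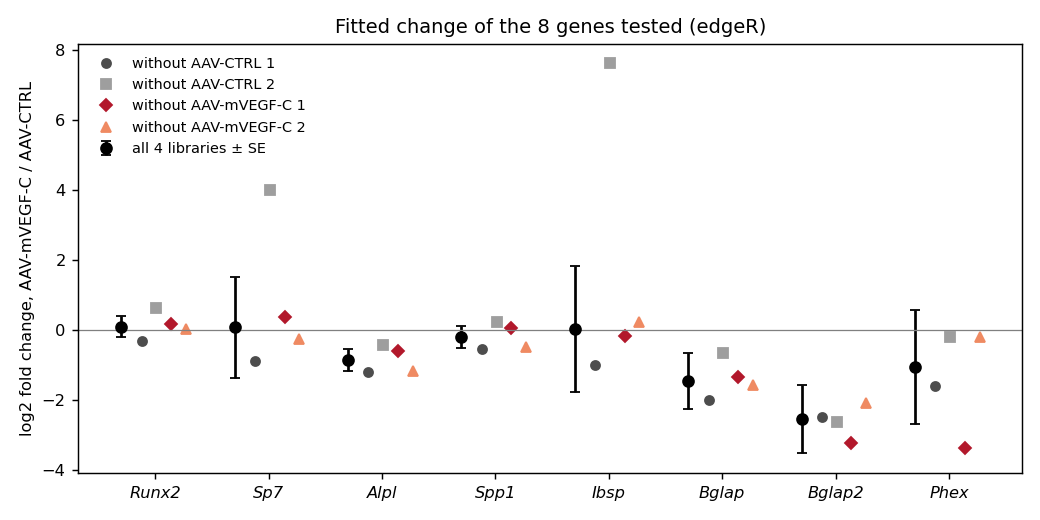
Log2 fold change of AAV-mVEGF-C over AAV-CTRL (y axis) for the 8 genes tested by edgeR, with its standard error (black), and with each library left out in turn (other symbols). *Alpl*, *Bglap*, *Bglap2*, and *Phex* stay below 0 throughout, *Runx2*, *Spp1*, *Sp7*, and *Ibsp* change sign, and the value of 7.60 for *Ibsp* rests on a control with 0 reads. The constant sign of *Alpl*, *Bglap*, and *Bglap2* follows from groups that do not overlap.

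Other genes of bone were then described from lists by role, and none of them had an adjusted p under 0.05 in edgeR. In the bone matrix list, 12 of 14 genes were tested, and 11 of the 12 were lower and 1 higher, at a median log2 fold change of −0.89. Both AAV-mVEGF-C libraries lay below both controls for 9 of the 12, against 15.2% of all genes tested. *Col1a1* and *Col1a2*, the chains of collagen I, had log2 fold changes of −0.97 ± 0.29 and −0.92 ± 0.32 (SE, as for the values below). *Col1a1* had 302 and 467 CPM in the controls, against 158 and 234 CPM. *Sparc*, which encodes the collagen-binding protein osteonectin, was at −0.86 ± 0.28. *Mgp*, an inhibitor of calcification, was at −0.43 ± 0.46 and overlapped between groups. *Col1a1*, *Col1a2*, and *Sparc* had unadjusted p-values of 0.0142, 0.0267, and 0.0212 in edgeR. Those of *Fmod*, *Postn*, and *Ogn* were 0.0233, 0.0202, and 0.00368. All of these matrix genes are also used by fibroblasts. *Ogn* alone passed in DESeq2 (adjusted p = 0.0366). *Ifitm5*, a membrane protein gene of mineralizing osteoblasts, overlapped between the groups, with 3.42 and 1.89 CPM in the controls, against 3.09 and 2.24 CPM.

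Of 10 further transcription factors, 9 were tested, and 6 were lower and 3 higher, at a median of −0.25. Both AAV-mVEGF-C libraries lay below both controls for 2 of the 9 and above both for 0, against 15.2% and 16.7% of all genes tested. *Dlx5*, which acts upstream of *Sp7*, had 3.51 and 0.668 CPM in the controls, against 0.332 and 0.441 CPM, with AAV-CTRL 1 far above the rest (unadjusted p = 0.0438 in edgeR). *Atf4* and *Cbfb*, which many cells express, were at 0.13 ± 0.17 and −0.08 ± 0.16. *Alx4* and *Twist1*, factors of skull development, were at −0.39 ± 0.37 and −0.25 ± 0.50.

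Of 10 genes of phosphate and mineral handling, 9 were tested, and 6 were higher and 3 lower, at a median of 0.22, with 1 of the 9 below both controls and 3 above both (15.2% and 16.7% of all genes tested). *Ank*, which exports pyrophosphate, had 31.6 and 35.9 CPM in the controls, against 40.6 and 41.9 CPM. *Slc20a1*, a phosphate carrier, was at 0.23 ± 0.15, and *Slc20a2*, its relative, at −0.10 ± 0.30. *Phospho1*, a phosphatase of matrix vesicles, had 18.8 and 10.4 CPM in the controls, against 17.3 and 20.9 CPM. *Alpl* thus stood on the other side of 0 from the median of this list, which mixes genes of several roles.

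Of 16 genes for signals and receptors, 14 were tested, and 10 were lower and 4 higher, at a median of −0.29, with 4 of the 14 below both controls and 1 above both (again 15.2% and 16.7% of all genes tested). *Lrp5* and *Lrp6*, co-receptors for Wnt, were at −0.23 ± 0.16 and −0.24 ± 0.19. *Smad1*, which relays BMP signals, was at 0.25 ± 0.25. *Tnfsf11*, which encodes the osteoclast-inducing RANKL and is also made by lymphocytes, had 18.3 and 19.1 CPM in the controls, against 23.9 and 25.8 CPM (unadjusted p = 0.0626 in edgeR). Of the osteocyte genes, *Sost*, an inhibitor of bone formation, had 0 to 9 reads in each library, and *Fgf23* and *Dkk1* had at most 5 reads in any library. *Pdpn*, also used by stromal cells, was the only one of these 4 that was tested (−0.47 ± 0.79).

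**Figure D4:**
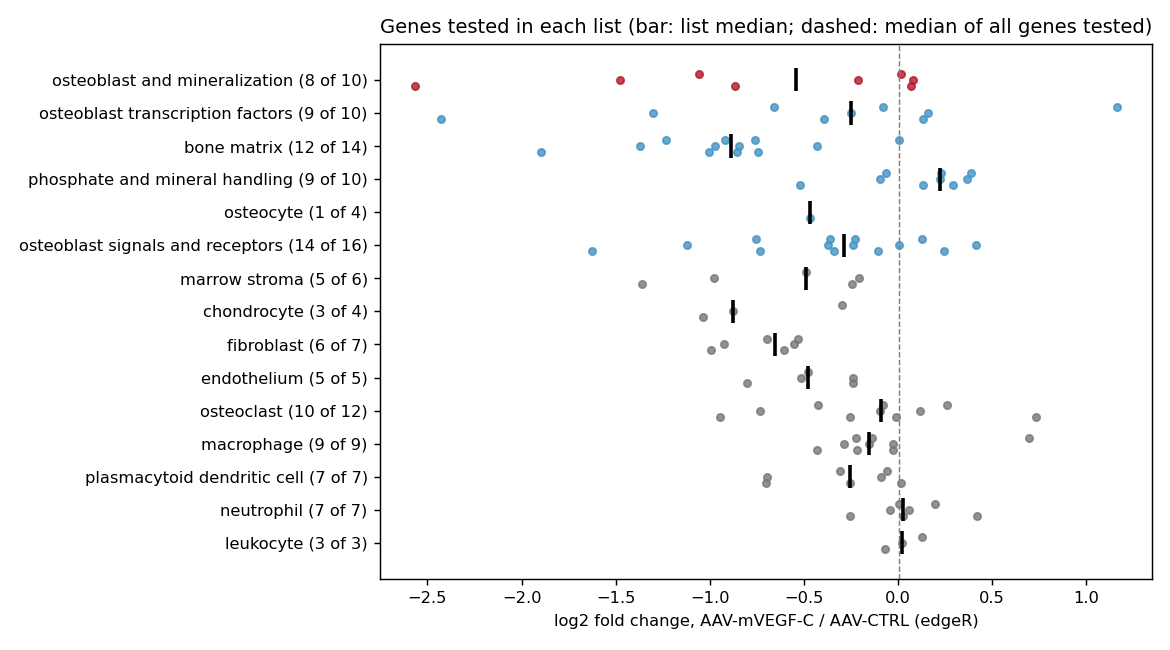
Log2 fold change of AAV-mVEGF-C over AAV-CTRL (x axis) for each gene tested by edgeR, in the 10 genes (red), the lists of bone genes (blue), and the lists of cell types (gray), with the list medians as bars and the numbers tested of those listed in brackets. Bone matrix genes have a median of −0.89 and phosphate and mineral genes one of 0.22.

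Summed levels of other cell types' genes differed along with these values, and their part in the result was not tested. The summed TPM of the 10 genes was 34.0, 66.8, 31.8, and 39.5 in AAV-CTRL 1 and 2 and AAV-mVEGF-C 1 and 2. That of 7 fibroblast genes was 34.2, 74.7, 22.8, and 38.0, with all 6 genes tested lower (median −0.65), 3 of them without overlap, and none of the 7 at 0 reads in any library. All 5 endothelial genes (median −0.48) and all 5 genes of marrow stroma tested (median −0.49) were lower, 4 and 2 of them without overlap. For comparison, 15.2% of all genes tested had both AAV-mVEGF-C libraries below both controls. Of the chondrocyte genes, 3 of 4 were tested, all lower, and their summed TPM was 0.688 to 1.25. Of 12 osteoclast genes, 10 were tested, and 7 were lower and 3 higher, at a median of −0.09, with a summed TPM of 250 to 311. The 4 of them with the highest mean TPM were *Mmp9* (147 to 207 TPM), *Nfatc1* (21.8 to 36.2), *Acp5* (16.7 to 27.5), and *Ctsk* (8.30 to 19.8). Most of the sum was thus *Mmp9*. In contrast, *Calcr* and *Oscar*, which osteoclasts express, had at most 9 reads in any library. Plasmacytoid dendritic cell genes summed to 75.7, 166, 81.0, and 100.6 TPM, and macrophage genes to 628, 840, 481, and 666 TPM, both highest in AAV-CTRL 2. Neutrophil genes were lowest there, at 12150 TPM against 14740 to 25070. The 3 leukocyte genes summed to 809 to 964 TPM.

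**Figure D5:**
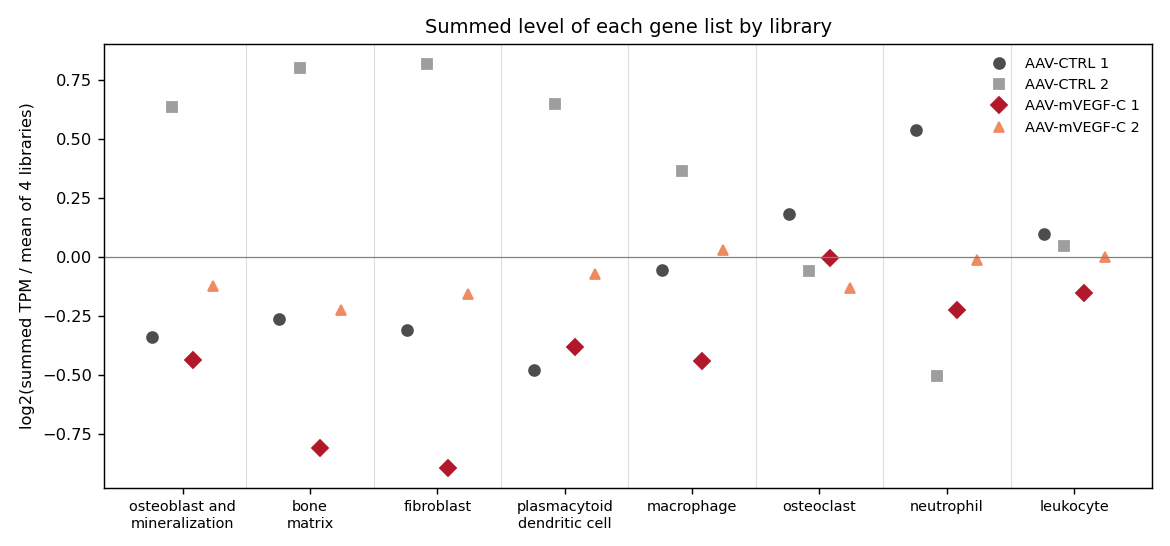
Summed TPM of each gene list in each library, as the log2 ratio to the mean of the 4 libraries (y axis), with symbols for libraries. The 10 genes, bone matrix, fibroblast, plasmacytoid dendritic cell, and macrophage lists are highest in AAV-CTRL 2, where the neutrophil list is lowest.

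Ratios within a library, which do not depend on scaling and were chosen after the values had been seen, set the abundant genes apart from each other. For every 1000 *Col1a1* reads there were 105 and 115 *Alpl* reads in the controls and 119 and 120 after the VEGF-C vector, a range of 1.14-fold. The ratio of *Dcn*, a fibroblast gene, to *Col1a1* had a range of 1.15-fold. *Alpl* and collagen I thus kept nearly the same proportion in all libraries, whereas its ratio ranged 1.66-fold and 1.76-fold to the macrophage genes *Mrc1* and *Adgre1*, 1.70-fold to *Siglech*, a plasmacytoid dendritic cell gene, 2.46-fold to *Runx2*, and 3.28-fold to *Ptprc*. *Runx2* did not keep to *Col1a1*, with 161 and 197 reads per 1000 in the controls and 450 and 331 after the VEGF-C vector. For *Spp1*, the ratio to *Col1a1* was 49.7 and 54.0 in the controls and 89.5 and 87.9 after the VEGF-C vector. The ratio of *Spp1* to *Adgre1* and *Mrc1* ranged 1.11-fold and 1.17-fold over the libraries, and its ratio to *Siglech* ranged 1.17-fold as well. To *Runx2* and *Ptprc* the *Spp1* ratio ranged more widely, 1.55-fold and 2.05-fold. That of *Runx2* ranged 1.51-fold to *Siglech*, 1.57-fold to *Adgre1*, 1.69-fold to *Mrc1*, and 2.30-fold to *Ptprc*. Only 6 genes were tried as the base of such ratios. The osteocalcin sum per 1000 *Col1a1* reads was 7.25 and 8.27 in the controls and 6.63 and 3.51 after the VEGF-C vector. It rests on 98 and 133 against 41 and 26 reads. These groups did not overlap, but neither did the ratios of *Alpl*, *Runx2*, and *Spp1* to *Col1a1*, which were higher after the VEGF-C vector. To the other bases, the osteocalcin ratio ranged from 3.70-fold (*Siglech*) to 5.18-fold (*Ptprc*). No share over all genes is given for such ratios.

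Among genes that varied enough to be compared, those most like the median profile of the 8 genes over the 4 libraries were *Vasn*, *Lag3*, *Cxcl12*, *Shisa3*, and *Cp*. Likeness was the root mean square distance between centered log2(CPM + 1) profiles, over 2977 genes that ranged by at least 1 on this scale. The median profile itself ran only from −0.216 (AAV-mVEGF-C 1) to 0.477 (AAV-CTRL 2). Genes that varied as little as this profile were therefore not candidates. The distance was 0.118 for *Vasn* and 0.130 for *Cp*, with the others between. *Cxcl12*, a chemokine of marrow stroma, had 12.5 and 22.6 CPM in the controls, against 10.7 and 14.3 CPM. *Lag3*, a receptor of lymphocytes and plasmacytoid dendritic cells, had 6.59 and 11.3 CPM in the controls, against 5.16 and 6.40 CPM. All 5 were highest in AAV-CTRL 2, and their log2 fold changes ran from −0.63 to −0.48, with an adjusted p of 0.999 for each in edgeR.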

How the data were processed

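RNA of sorted dural CD45+ cells was sequenced as 2 libraries per group with a stranded total RNA kit for picogram inputs. The authors deposited estimated counts (expected reads per gene, 8.18% of them with decimals, not normalized) and TPM values of the same genes. The submitters' processing notes name FastQC, Trimmomatic, DRAGEN, and Picard and the build mm10, without versions. Estimated counts were rounded and tested with edgeR 4.0.16 in R 4.3.3 (glmQLFit and glmQLFTest, TMM scaling, filterByExpr, 4 libraries, no covariate), with Benjamini-Hochberg adjustment over 19806 genes and a threshold of 0.05. CPM values are TMM-scaled. The standard error is the log2 fold change divided by the square root of F. P-values measure the spread between pools.

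The labels number the libraries by experiment, while the column names number them otherwise, so the numbers were not taken as pairs. Across genes, the correlation between same-numbered libraries, each taken as its deviation from the group mean, was −0.134 (log2 CPM of edgeR) or −0.0353 (log2(CPM + 1)). On simulated counts with 200 changed genes, edgeR recovered 26 of 100 changed 4-fold and 98 of 100 changed 16-fold, with 9 false calls among 19097 genes. The simulation gave every gene the same dispersion, 0.173, and held no library that lacked low genes as AAV-CTRL 1 did. Its counts therefore do not carry over to low genes such as *Sp7* and *Ibsp*. The 10 genes, the lists, and the tests were chosen with earlier results of these data known. Named besides the 10 were paralogs, the 4 genes of each bone list and of the osteoclast list with the highest mean TPM, bone list genes with an unadjusted p under 0.05, and the 5 genes of most similar profile. *Ifitm5*, *Calcr*, *Oscar*, and the genes used in ratios are outside this rule, picked once their values were known. Gene coordinates come from GENCODE M21 (GRCm38), where 54349 of 55401 identifiers occur with the same version; *Runx2* has another version there. Alternatives were DESeq2 1.42.0, limma-voom (limma 3.58.1), RLE size factors, no filter, limma on log2(TPM + 1) and log2(TPM + 0.1), a replicate block, each library left out, and the osteocalcin genes summed. A crossed block was added after the data had been seen.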

Additional observations from a re-analysis of the deposited data

How the results depend on the processing

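The count of genes with an adjusted p under 0.05, 0 in the main edgeR test, was also 0 with limma-voom, RLE size factors, limma on TPM with either pseudocount, and summed osteocalcin genes. It was 77 with DESeq2, 268 without a filter, and 11 with a replicate block built on the experiment numbers. With the numbers crossed, a block chosen after seeing the data, it was 54. It ran from 2 to 2058 with a library left out, the highest value being without AAV-CTRL 2. Of the 10 genes, 0 passed in the main test and 1, *Alpl*, passed without a filter, and between 0 and 2 passed with a library left out. The replicate block and the crossed block changed no call among the 10. The median of the 8 genes, −0.54, was −0.52 with the replicate block, −0.19 with log2(TPM + 1), whose pseudocount draws low genes toward 0, and −0.21 over 7 genes with the osteocalcin genes summed. It ran from −1.11 to −0.0008 with a library left out. *Alpl*, *Bglap*, and *Phex* were below 0 in all 13 alternatives, *Bglap* standing for the sum of 3 genes in 1 of them, and *Bglap2* in the 12 that keep it as a gene, with *Alpl* between −1.22 and −0.43, *Bglap* between −2.00 and −0.68, *Bglap2* between −3.24 and −1.57, and *Phex* between −3.37 and −0.07. The direction turned for *Ibsp* without a filter (−0.028), with log2(TPM + 1) (−0.0092), without AAV-CTRL 1 (−1.01), and without AAV-mVEGF-C 1 (−0.20). It turned for *Sp7* with log2(TPM + 1) (−0.0032), without AAV-CTRL 1 (−0.91), and without AAV-mVEGF-C 2 (−0.27). It turned for *Runx2* without AAV-CTRL 1 (−0.32), and for *Spp1* without AAV-CTRL 2 (0.22) and without AAV-mVEGF-C 1 (0.043). With a library left out, values ran from −1.01 to 7.60 for *Ibsp*, −0.91 to 3.98 for *Sp7*, −0.32 to 0.62 for *Runx2*, and −0.56 to 0.22 for *Spp1*. Without a change of sign, *Ibsp* was 2.85 with limma-voom, 1.88 with the replicate block, and 1.75 with the crossed block, and *Sp7* 1.69, 1.29, and 1.22. The cause was not tested. With 1 library left in a group, the lone library is assumed to vary like the other group. Leaving out a library could not turn the sign of *Alpl*, *Bglap*, or *Bglap2*, whose groups do not overlap. *Sp7*, *Ibsp*, *Phex*, *Dmp1*, and *Mepe* had 0 to 48 reads per library, and AAV-CTRL 1, with the most assigned reads, had the fewest genes detected.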
